A study of Mus musculus with 6 samples.

Results

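A set of 6 neurotrophin system genes was described across sorted mouse sensory ganglion cells: the ligand genes Bdnf and Ntf3, the tyrosine kinase receptor genes Ntrk2 (TrkB) and Ntrk3 (TrkC), and Ngfr (the p75 receptor) with its partner Sort1 (sortilin). They were taken by symbol from the deposited table of 23029 genes, in which each of the 6 symbols names 1 row. RNA was sequenced from 3 sorted subsets of cells of the dorsal root ganglia, where the somata of sensory neurons lie, with 2 libraries per subset. All cells came from animals of genotype GINIP+/mcherry, so every subset, the DN cells included, carried 1 mCherry allele of GINIP, whose product modulates inhibitory G protein signalling. DP cells bound isolectin B4 (IB4+GINIP+) and are labelled as Mrgprd+ neurons, nociceptors that end freely in the skin. C-LTMR cells (IB4-GINIP+) are labelled as unmyelinated low-threshold mechanoreceptors. DN cells (IB4-GINIP-) are defined only by lacking both IB4 binding and GINIP, so that subset is a mixture. The labels do not say that replicates came from separate animals, so the p-values reflect only how far these particular libraries varied, and that variation may be technical.

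Neurotrophins are secreted growth factors made as larger precursors. BDNF acts mainly through TrkB and NT-3, the product of Ntf3, mainly through TrkC, while p75 binds all neurotrophins and, together with sortilin, their uncleaved precursors. In the dorsal root ganglion, TrkC is best known from proprioceptors and TrkB from rapidly adapting touch receptors, and both genes also give short forms without the kinase domain, which glia can express. The deposited values are sums per gene, so full-length and kinase-less receptor transcripts could not be told apart.

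Values are RPKM (reads scaled to gene length in kilobases and to library size in M reads), which allow levels of different genes to be compared. Libraries held an estimated 32.3 to 42.1 M reads. The subset markers followed the labels: N28178, the GINIP gene, was at 121 to 150 RPKM in DP and C-LTMR and at 13.8 and 18.6 in DN. Mrgprd was at 220 and 277 RPKM in DP and under 2.1 elsewhere, and Th at 1017 and 1038 in C-LTMR against 14.2 to 61.7 elsewhere. DN also held markers of other ganglion cells. All 9 satellite glia markers and 9 of 10 myelinating Schwann cell markers were called higher in DN than in DP and than in C-LTMR. Of 10 endothelial markers, 10 were higher in DN than in DP and 9 than in C-LTMR, and of 7 pericyte and fibroblast markers 6 and 7 were. DP held immune markers: 11 such genes, led in DP by S100a9, summed to 225 and 253 RPKM in DP, 1.47 and 1.71 in C-LTMR and 43.3 and 73.5 in DN. Of the 7 of them tested, 6 were called higher in DP than in C-LTMR, 6 lower in C-LTMR than in DN, and 3 higher and 3 lower in DP than in DN. In bulk samples, fewer cells of a type and less RNA per cell cannot be told apart.

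The promoter stretches of 3 genes are shown because Ngfr and Ntrk2 had their lowest levels in DP, and Bdnf in C-LTMR. Ntf3, barely detected and also lowest in DP, has promoter windows too, which are not shown. Sequences are from RefSeq (GRCm38.p6), whose promoter table held 4 of the 6 genes, in 11 windows, and are cut where an annotated exon begins. Capitals mark the GC box GGGCGG, the Runx motif TGTGGT and CACGTCA, a variant of the cAMP response element, each searched on both strands, and no match overlaps another. The Ngfr stretch is chr11:95587736-95587948 (minus strand), the Ntrk2 stretch chr13:58806319-58806471 (plus strand) and the Bdnf stretch chr2:109692186-109692435 (plus strand).
Ngfr: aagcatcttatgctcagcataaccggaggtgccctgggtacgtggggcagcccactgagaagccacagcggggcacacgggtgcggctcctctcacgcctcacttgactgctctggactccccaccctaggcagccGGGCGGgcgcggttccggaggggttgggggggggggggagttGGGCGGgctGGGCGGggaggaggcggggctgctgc
Ntrk2: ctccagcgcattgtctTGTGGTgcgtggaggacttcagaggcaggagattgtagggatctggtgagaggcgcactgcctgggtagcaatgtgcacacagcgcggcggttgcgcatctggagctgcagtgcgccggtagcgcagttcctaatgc
Bdnf: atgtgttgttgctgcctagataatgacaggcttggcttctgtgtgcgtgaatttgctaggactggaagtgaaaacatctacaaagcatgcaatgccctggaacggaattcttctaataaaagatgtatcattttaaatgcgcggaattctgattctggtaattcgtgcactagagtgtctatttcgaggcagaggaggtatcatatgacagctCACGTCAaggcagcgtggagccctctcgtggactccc
Of 32851 RefSeq windows of 250 bases upstream of a start, 32.7% held GGGCGG, 14.0% TGTGGT and 1.65% CACGTCA. Among the 7 Bdnf windows, the one shown was the only one with CACGTCA. The 1.65% is a share of single windows, so a match in any of 7 windows is less rare. Other Bdnf windows, not shown, held GGGCGG. Bdnf has several alternative first exons, and the gene-level values do not say which start was used. These matches describe the letters of the windows and were tested against no expression value.

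Bdnf (Entrez 12064, chromosome 2, 109674700 to 109727043), the gene of brain-derived neurotrophic factor, was strong in DN, intermediate in DP and low in C-LTMR. Its RPKM was 51.2 and 52.0 in the DN libraries, 19.9 and 22.0 in DP, and 5.52 and 4.36 in C-LTMR. The 3 subsets did not overlap, and the replicates of DN were nearly equal. DP was 4.20-fold above C-LTMR (log2 fold change 2.07 with SE 0.130, limma BH-adjusted p = 9.2e-05), on the scale of log2(RPKM + 0.1) used for all fold changes. DP was below DN by 2.46-fold (-1.30 with SE 0.130, limma BH-adjusted p = 0.000202), and C-LTMR was below DN by 10.3-fold (-3.37 with SE 0.130, limma BH-adjusted p = 6.15e-06). Bdnf was the one member tested that was higher in DP than in C-LTMR. Markers of other cells also differed in that direction, with 6 of 7 tested immune markers and 4 of 7 pericyte and fibroblast markers (21.5 and 23.7 RPKM summed in DP, 6.08 and 9.26 in C-LTMR) called higher in DP. Against DN, markers of several cell types differed in the direction of Bdnf. All 9 satellite glia and 9 of 10 myelinating Schwann cell markers were called higher in DN than in each other subset. So were most endothelial, pericyte and fibroblast markers. Among all genes tested, 24.4% were called lower in DP than in DN and 22.3% lower in C-LTMR. Immune markers were split in DP minus DN, with 3 higher and 3 lower. Bdnf also moved with 4 of the 5 markers of peptidergic nociceptors, Calca and Tac1 among them. The 5 summed to 8726 and 7926 RPKM in DN, 1465 and 1302 in DP, and 1601 and 1523 in C-LTMR. Of them, 4 were called higher in DN than in each other subset. The other, Calcb, ran the opposite way, at 282 and 233 RPKM in DN, 576 and 521 in DP, and 343 and 353 in C-LTMR. It was called higher in DP than in DN. None of these markers was at 0 in DP or DN. In the C-LTMR libraries, 2 and 2 immune markers and 1 and 2 endothelial markers were at 0. The part of these cells in the Bdnf values was not tested.

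Ntf3 (Entrez 18205, chromosome 6, 126101412 to 126166744), which encodes neurotrophin-3, was barely detected. Its RPKM was 0.0153 and 0.0169 in DP, 0.170 and 0.0600 in C-LTMR, and 0.530 and 0.260 in DN. If each DP library holds 1 read, the same gene length gives 9 and 3 reads in C-LTMR and 32 and 13 in DN, rounded to whole reads. DP thus lay under a floor of 3 reads, and only DN was clearly above it. Over both libraries, the rate in DN was 25.4 times that in DP (95% exact interval 6.63 to 216) and 3.50 times that in C-LTMR (1.82 to 7.27). These intervals cover counting error only, and they treat reads as independent although the RNA was amplified. Only 1 library reached 0.5 RPKM, so the gene was not among those tested. Without the filter on low values, DP against DN passed (limma BH-adjusted p = 0.0311), while DP against C-LTMR (limma BH-adjusted p = 0.317) and C-LTMR against DN (limma BH-adjusted p = 0.108) did not.

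**Figure D1:**
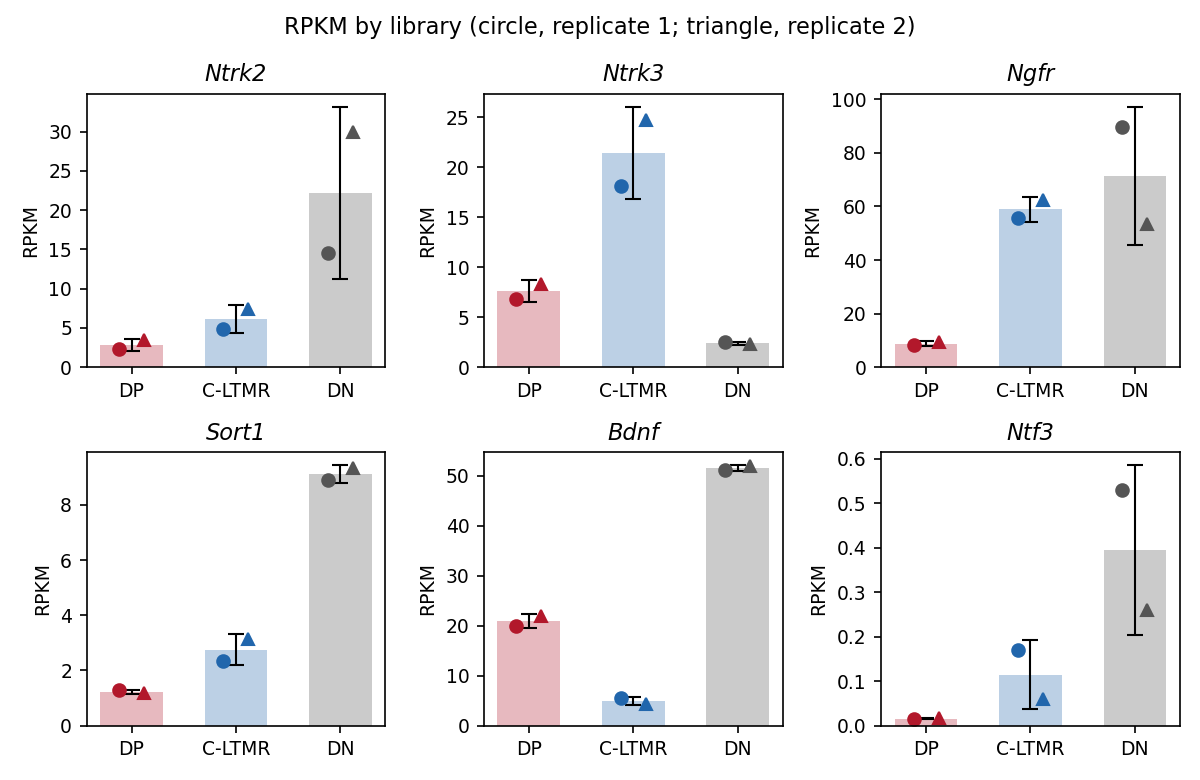
RPKM of the 6 genes in each library; bars are subset means and whiskers ± 1 SD (n = 2), with circles for replicate 1 and triangles for replicate 2, and each panel has its own axis. Ntrk3 peaks in C-LTMR, Bdnf is lowest in C-LTMR, and the other genes are lowest in DP.

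The receptor genes Ntrk2 and Ntrk3 had different orders across the subsets. Ntrk3 (Entrez 18213, chromosome 7, 78192114 to 78577838) was at 18.2 and 24.7 RPKM in C-LTMR, 6.85 and 8.36 in DP, and 2.504 and 2.308 in DN. C-LTMR stood highest and DN lowest, with no overlap between subsets. C-LTMR was 8.50-fold above DN (log2 fold change 3.09 with SE 0.177, limma BH-adjusted p = 2.08e-05). DP was 3.06-fold above DN (1.61 with SE 0.177, limma BH-adjusted p = 0.000301) and 2.78-fold below C-LTMR (-1.47 with SE 0.177, limma BH-adjusted p = 0.00111). Ntrk3 was the only member that was higher in both GINIP+ subsets than in DN. The 13 markers of proprioceptors and A-fibre touch receptors summed to 169.5 and 118 RPKM in DN, 188 and 166 in C-LTMR, and 78.8 and 97.5 in DP, and 0 of them were at 0 in DN. Of the 9 tested, 4 were called higher in DN than in DP, 0 lower. Between C-LTMR and DN, 4 were higher in DN and 2 in C-LTMR, and 3 were lower in DP than in C-LTMR. Spp1 was at 18.1 and 19.1 RPKM in DN against 1.10 to 7.36 elsewhere, and Maf at 10.2 and 19.4 against 1.03 to 1.68, while Runx3, a transcription factor gene of proprioceptors, was at most 0.159 in every library. Their part in the Ntrk3 values was not tested.

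Ntrk2 (Entrez 18212, chromosome 13, 58806596 to 59129967) ran the other way from Ntrk3 only in the comparisons with DN. Its RPKM was 14.5 and 29.99 in DN, 4.82 and 7.39 in C-LTMR, and 2.34 and 3.403 in DP. The subsets did not overlap, but the DN libraries differed by 2.07-fold. DN was 7.17-fold above DP (log2 fold change of DP minus DN -2.84 with SE 0.374, limma BH-adjusted p = 0.000695). It was 3.45-fold above C-LTMR (C-LTMR minus DN -1.79 with SE 0.374, limma BH-adjusted p = 0.00591), a call that was lost when genes of any level were tested (adjusted p = 0.0649). DP and C-LTMR did not pass against each other (-1.06 with SE 0.374, limma BH-adjusted p = 0.0766). That comparison passed in 4 alternatives: with only the 4 libraries compared (adjusted p = 0.0335), with a replicate block (0.0029), without DN replicate 1 (0.0339) and without DN replicate 2 (0.034).

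**Figure D2:**
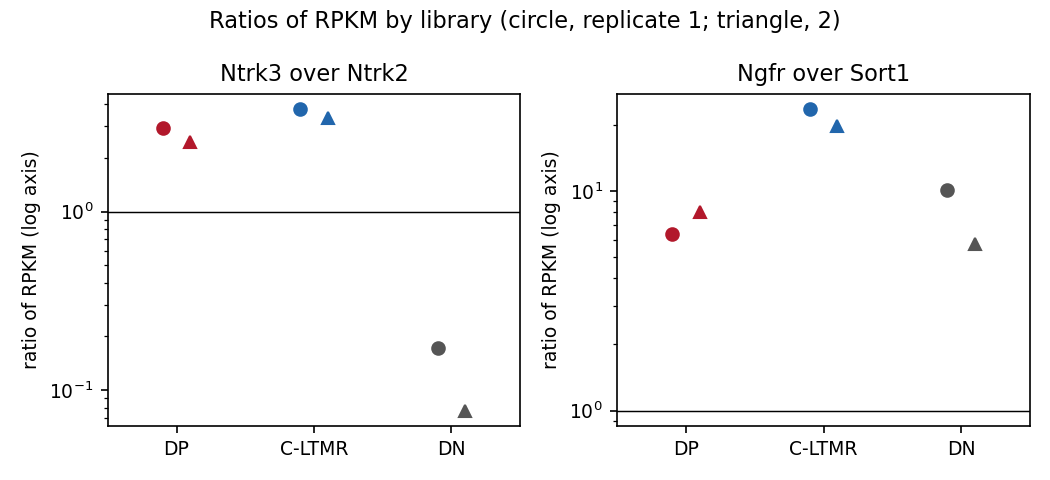
Ratio of RPKM between 2 genes in each library, on log axes, with circles for replicate 1 and triangles for replicate 2. Ntrk3 exceeds Ntrk2 in the 4 GINIP+ libraries and lies below it in both DN libraries, and Ngfr exceeds Sort1 most in C-LTMR.

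Within single libraries, the balance of the receptor genes turned over. Ntrk3 over Ntrk2 was 2.93 and 2.46 in DP and 3.77 and 3.34 in C-LTMR, as a ratio of RPKM. In DN the same ratio was 0.173 and 0.0770. The library-wise ratio is free of any scaling between libraries, and all GINIP+ libraries lay above 1 and both DN libraries under it.

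Ntrk2 varied between replicates in the same direction as markers of satellite glia and of some other non-neuronal cells. It was higher in replicate 2 than in replicate 1 of each subset, by 1.46-fold in DP, 1.53-fold in C-LTMR and 2.07-fold in DN. The summed RPKM of the 9 satellite glia markers, such as Apoe, Fabp7 and Kcnj10, was 1.72, 1.92 and 2.34 times higher in replicate 2, in the same order. Of the 9 markers, 8, 8 and 9 were higher in replicate 2. The sum was 700 and 1207 RPKM in DP, 1033 and 1984 in C-LTMR, and 7273 and 16991 in DN, and 0 of the markers were at 0 in any library. Some other cell markers were higher in replicate 2 as well. The summed pericyte and fibroblast markers were 1.10, 1.52 and 1.44 times higher (4, 7 and 7 of 7 genes) and the immune markers 1.12, 1.16 and 1.70 times higher (7, 7 and 6 of 11). The endothelial sum was higher in replicate 2 of DN only (0.831, 0.998 and 1.59 times). So was that of the myelinating Schwann cell markers (0.988, 0.988 and 1.11 times), with 7, 7 and 4 of 10 genes higher. The part of these cells in the Ntrk2 values was not tested. Each of the other members was lower in replicate 2 of at least 1 subset, with Ntrk3, Ngfr and Ntf3 lower in that of DN.

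**Figure D3:**
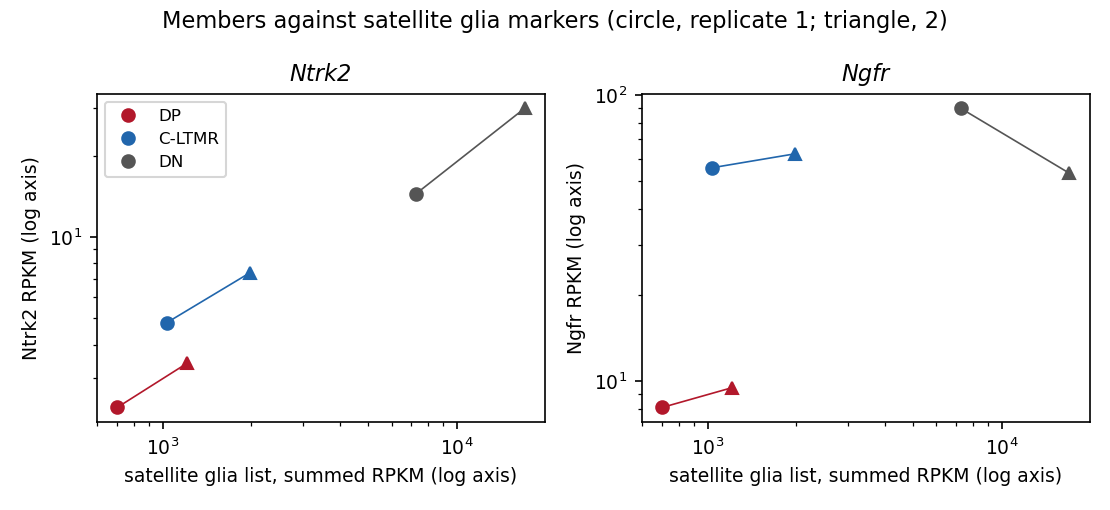
RPKM of Ntrk2 (left) and Ngfr (right) against the summed RPKM of 9 satellite glia markers in each library, on log axes; lines join the 2 replicates of a subset. Every Ntrk2 line rises, whereas the Ngfr line of DN falls from 89.7 to 53.3 RPKM.

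Ngfr (Entrez 18053, chromosome 11, 95568821 to 95587698), the p75 gene, separated DP from both other subsets. It was at 8.10 and 9.49 RPKM in DP, against 55.7 and 62.3 in C-LTMR and 89.7 and 53.3 in DN. Both DP libraries were far below the other 4, while the DN libraries fell on either side of C-LTMR. DP was 6.65-fold below C-LTMR (log2 fold change -2.73 with SE 0.233, limma BH-adjusted p = 0.000264) and 7.81-fold below DN (-2.96 with SE 0.233, limma BH-adjusted p = 7.33e-05). C-LTMR and DN did not pass against each other (-0.23 with SE 0.233, limma BH-adjusted p = 0.424), and the sign turned without DN replicate 1 (0.14, adjusted p = 0.373). The adjusted p was below 0.05, with a log2 fold change short of 1, without DN replicate 2 (-0.61, adjusted p = 0.0135) and after rescaling by the pan-sensory-neuron genes (-0.80, adjusted p = 0.00418). Within DN, neuronal genes were also lower in replicate 2: the summed level of 18 pan-sensory-neuron genes was 0.788 times that in replicate 1, with 0 of 18 higher, and that of the 13 proprioceptor and A-fibre markers 0.699 times. In DP and C-LTMR, the pan-sensory-neuron sum of replicate 2 was 0.970 and 0.992 times that of replicate 1, while Ngfr was 1.17 and 1.12 times as high. That association was not tested.

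Sort1 (Entrez 20661, chromosome 3, 108284132 to 108361511), the sorting receptor that joins p75 in binding precursor neurotrophins, was the lowest of the receptor genes in the GINIP+ subsets. Its RPKM was 1.28 and 1.18 in DP, 2.35 and 3.16 in C-LTMR, and 8.89 and 9.35 in DN, with no overlap. DN was 6.93-fold above DP (DP minus DN -2.79 with SE 0.169, limma BH-adjusted p = 2.67e-05) and 3.26-fold above C-LTMR (C-LTMR minus DN -1.71 with SE 0.169, limma BH-adjusted p = 0.000191). DP was 2.12-fold below C-LTMR (-1.09 with SE 0.169, limma BH-adjusted p = 0.00347). This last difference stayed under an adjusted p of 0.05 but fell short of the required log2 fold change of 1 with a pseudocount of 1 (-0.74), after quantile normalization (-0.87), when rescaled to pan-sensory-neuron genes (-0.87) and without C-LTMR replicate 2 (-0.88). The ratio of Ngfr to Sort1 was 23.7 and 19.7 in C-LTMR, 6.34 and 8.01 in DP, and 10.1 and 5.70 in DN. C-LTMR libraries thus had the highest ratio, and those of DP and DN overlapped.

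Counts of calls were read against all genes tested, where a call needs an adjusted p below 0.05 and a log2 fold change of 1 or more in either direction. Of the 5 members tested, 4 passed between DP and C-LTMR (1 higher and 3 lower in DP), where 15.2% of 13478 genes were called. Between DP and DN, 5 of 5 were called (1 higher and 4 lower in DP), against 32.4% of all genes. Between C-LTMR and DN, 4 of 5 were called (1 higher and 3 lower in C-LTMR), against 30.9%. The median absolute log2 fold change of the members was 1.47, 2.79 and 1.79 in these comparisons, where all genes had 0.287, 0.548 and 0.515. The members were picked with results known, so these counts are a description.

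**Figure D4:**
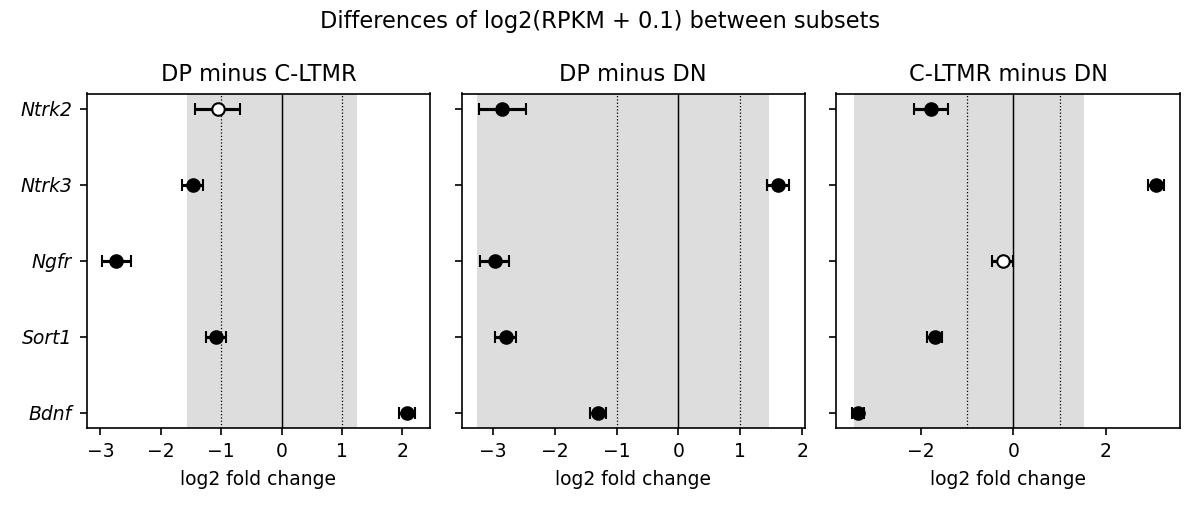
Log2 fold change ± SE of the 5 tested genes in each comparison (3 subsets, 6 libraries); filled points were called and open points were not. Grey bands span the central 90% of all genes tested and dotted lines mark a log2 fold change of 1, and Ntrk3 lies to the right of 0 in both comparisons with DN.

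Among 44 other genes of neurotrophin signalling, 43 were tested (only Ntf5, the gene of neurotrophin-4, was too low). Between DP and C-LTMR, 1 was higher in DP and 7 were lower, where 6.6% and 8.62% of all genes were. Between DP and DN the counts were 5 higher and 17 lower (7.92% and 24.4% of all genes), and between C-LTMR and DN 5 and 9 (8.67% and 22.3%). These balances moved with the scaling. In C-LTMR minus DN they were 8 higher and 8 lower after quantile normalization and 5 and 15 after rescaling by the pan-sensory-neuron genes. In DP minus DN they were 8 and 15 after quantile normalization and 4 and 17 after rescaling, and in DP minus C-LTMR 1 and 6, and 2 and 5. In the TMM-normalized table, which held 20 of these genes, they were 4 and 4 in DP minus DN and 3 and 2 in C-LTMR minus DN. The median log2 fold change of the list was -0.07, -0.33 and 0.02 in these comparisons, beside -0.05, -0.17 and -0.06 for all genes. The list was fixed with earlier results of these data known.

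The sortilin relatives did not all follow Sort1. Sorl1 was at 13.8 and 16.7 RPKM in DP and 13.7 and 22.1 in C-LTMR against 2.31 and 2.28 in DN, so against DN it ran opposite to Sort1. Sorcs3 was highest in C-LTMR, with 2.59 and 3.13 RPKM there and at most 0.306 in the other 4 libraries. Sorcs2 was highest in DN (1.66 and 3.28 RPKM), and Sorcs1 was lower in DP (0.705 and 0.748) than in C-LTMR (1.65 and 1.88) and DN (2.26 and 3.90).

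Partners of p75 also moved in both directions. Lingo1, a co-receptor of p75, was at 39.8 and 46.7 RPKM in C-LTMR, 19.5 and 20.8 in DP, and 4.76 and 3.59 in DN, and all 3 comparisons were called (log2 fold change of C-LTMR minus DN 3.35, limma BH-adjusted p = 9.94e-06). Nradd, a gene related to Ngfr, was higher in DN, at 12.5 and 13.4 RPKM against 1.43 to 2.33 in the other subsets. The adaptor genes Maged1 and Ripk2 were lower in DP than in DN (-1.45 and -1.43), and Ngfrap1 was higher (1.02). Traf6, Arhgdia and Prdm4 were called in 0 comparisons.

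Of 8 genes listed for the processing of neurotrophin precursors or p75, Plat, the tissue plasminogen activator gene, differed most. It was at 12.02 and 19.52 RPKM in DN, 1.58 and 1.52 in DP, and 0.438 and 0.684 in C-LTMR (C-LTMR minus DN -4.57, limma BH-adjusted p = 2.51e-05). Pcsk5, Pcsk6 and Adam17 were also higher in DN than in both other subsets, whereas Plau, the urokinase gene, was lower in DN (0.163 and 0.222 RPKM) than in DP (1.64 and 1.33). Furin and Pcsk7 were called in 0 comparisons.

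Of 17 Trk adaptors and effectors, 14 were called in 0 comparisons, including Grb2, Frs2, Plcg1, Ptpn11, Sos1 and Kidins220, as were 59.3% of all genes tested. The 3 called genes were of the Shc and Sh2b families. Shc4 was at 5.31 and 5.69 RPKM in DN and at most 0.616 elsewhere, and Shc3 was also higher in DN, at 0.511 and 0.864. Sh2b2 was lower in DP (0.700 and 0.750 RPKM) than in C-LTMR (2.76 and 2.86) and DN (3.67 and 2.72). Among Trk regulators, Islr2 was at 0.124 and 0.157 RPKM in DP against 1.24 to 2.78 in the other 4 libraries, and Ptprs at 3.80 and 4.03 against 12.5 to 18.5. Lrig1 was higher in DN (5.78 and 6.17 RPKM against 0.487 to 0.641), while the ubiquitin ligase gene Nedd4l was lower in DN (10.4 and 7.92 against 40.01 to 48.24). Shc4, Lrig1, Nradd and Plat were thus high in the subset that also had the glial and endothelial markers, and the part of those cells in their levels was not tested.

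**Figure D5:**
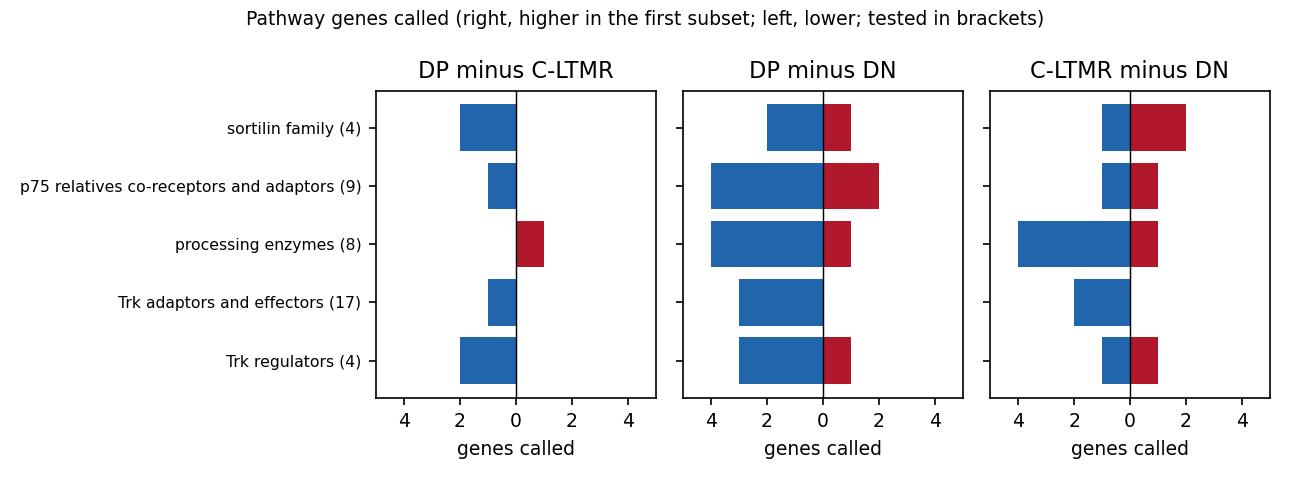
Number of pathway genes called in each comparison, by role (roles with at least 4 tested genes), with the number tested in brackets; bars to the right count genes higher in the first subset and bars to the left genes lower. Adaptors and effectors of Trk receptors hold few calls among 17 genes, and most calls of DP minus DN point to the left, which was not so in the TMM-normalized table (4 and 4).

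The genes whose profile over the 6 libraries was most like each member were found by the root mean square difference of centred log2 values. For Ntrk3 they were Gabra2, a GABA-A receptor subunit gene (difference 0.0589), Pdlim1 (0.130) and March11 (0.157). For Bdnf they were Rasl11b (0.159), Cbr3 (0.174) and H2-K1 (0.210). Ngfr was closest to Tmem90b (0.149), Pianp (0.150) and Ptprn2 (0.161), and Sort1 to Lbp (0.0745), Fam19a5 (0.126) and Vegfa (0.142). Ntrk2 was closest to Il25 (0.0670), Iffo2 (0.122) and Heyl (0.127). The nearest genes to Ntf3, Mir1192 (0.181), Pcsk1 (0.190) and Serpinb1b (0.210), rest on its few reads. Its DP values (0.0153 and 0.0169 RPKM) also lay below the pseudocount of 0.1, which shrank its differences between subsets in this measure. The 6 points are 2 libraries each of 3 subsets, so a small difference mainly means the same order of subsets.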

How the data were processed

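Total RNA of 6 sorted samples (3 subsets, 2 libraries each) was used. Per the labels' protocols, 50 ng of RNA was amplified before library construction, so reads are not independent molecules. The submitters' processing notes name CASAVA 1.8.2 and edgeR 2.6.2, with GRCm38 (mm10) as the build. Strand use, annotation and aligner settings were not given in the sources used here. RPKM values, as deposited by the authors, fill the main table. The second deposited table, a TMM-normalized signal for 6620 genes, lists 5 of the 6 members and served as an alternative. Its scale relative to RPKM differed between libraries by at most 0.10 on the log2 scale.

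RPKM values were taken as log2(RPKM + 0.1), which understates changes of low genes. Genes with at least 0.5 RPKM in at least 2 libraries entered (13478 genes, 5 of the 6 members), and all 6 libraries were fitted together with limma 3.58.1 in R 4.3.3 (eBayes with a trend, 3 residual degrees of freedom, median prior degrees of freedom 3.65). P-values were adjusted over all genes tested (Benjamini-Hochberg, BH). The fit was tested on simulated data. Depth was estimated from the 1-read steps of low RPKM values. The 5 tested members rested on an estimated 308 to 11962 reads per library. Other steps used Python 3.11.15 with scipy 1.17.1, pandas 2.3.3, matplotlib 3.10.9 and numpy 2.4.6.

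The members and gene lists were chosen with earlier results of these data known. Named genes are the members, pathway genes called in at least 1 comparison, the 3 genes most like each member, and marker genes; pathway genes named as called in 0 comparisons were picked after their values were seen. Alternatives were other pseudocounts (1 and 0.01), filters (none and 1 RPKM), scalings, the TMM-normalized table, fits of 4 libraries, a replicate block and leaving out each library. Values of some listed genes are not reported here.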

Additional observations from a re-analysis of the deposited data

How the results depend on the processing

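Of 225 combinations of a member's log2 fold change and an alternative, 215 kept direction and call, 5 lost the call, 4 gained it and 1 reversed (Ngfr in C-LTMR minus DN, from -0.61 to 0.14 over the fits that leave out a library); all are named in the report. The counts of members called moved by 1 at most. The number of genes called between DP and C-LTMR was 1196 with a pseudocount of 1 in place of 2052. In the TMM-normalized table, which lists fewer genes, the calls numbered 843 between DP and C-LTMR, 1645 between DP and DN and 1562 between C-LTMR and DN (4361 and 4167 in the RPKM table), and 3, 8 and 5 pathway genes in place of 8, 22 and 14. Rescaling to pan-sensory-neuron genes moved the median log2 fold change of all genes from -0.17 to -0.50 in DP minus DN, from -0.06 to -0.62 in C-LTMR minus DN and from -0.05 to 0.17 in DP minus C-LTMR. Quantile normalization moved the first and second of these to 0.15 and 0.16. The share of calls that were higher in the first subset was 46.9% in DP minus DN (24.5% as reported) and 48.6% in C-LTMR minus DN (28.0%) after quantile normalization, and 13.3% in C-LTMR minus DN and 54.5% in DP minus C-LTMR (43.4%) after rescaling. Directions of members were kept under both. In the labels, replicate numbers are shared between subsets only as numbers. The deviations of same-numbered libraries were nonetheless positively correlated across genes (0.377 for DP and C-LTMR, 0.0970 for DP and DN, 0.279 for C-LTMR and DN). With a replicate block, 2111, 4385 and 4180 genes and 5, 5 and 4 members were called. With 2 libraries per subset, a library left alone is assumed to vary like the others.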
